A study of Mus musculus with 15 samples.

Results

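Red cell transcripts were examined in the cerebellum of newborn mice with and without Cxcr4, the receptor of the chemokine Cxcl12. The members were 4 listed erythroid genes (Alas2, Slc4a1, Epb42 and Ahsp) and every gene whose symbol starts with Hba- or Hbb-, which includes the embryonic globins Hba-x and Hbb-y. The array held 10 probes of 9 such genes among 25697 probes, which stood for 16593 named genes. They were Hba-a1, Hba-x, Hbb-bt, Hbb-b2, Hbb-y with 2 probes, Hbb-bh1, Alas2, Slc4a1 and Epb42. No probe was matched to Ahsp, the chaperone of free alpha globin, which was not analysed here. The same holds for Hba-a2, Hbb-b1 and Hbb-bs.

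The samples were cerebella dissected on postnatal day 1 (P1) from C57BL/6 mice, 8 wild-type (WT) and 7 knockout (KO), with 1 array each. KO mice were Cxcr4 flox/flox; Sox1-Cre, and WT mice were their littermates without Cre. Sox1-Cre acts in the neural tube, from which blood cells do not arise, so the KO is meant as a model of loss in neural cells. A check of Cxcr4 in the red cell lineage is not given in the sources used here. Whether the WT littermates carried floxed alleles is not given in the sources used here, nor are the sex of the animals, the BeadChip of an array or any flushing of blood from the vessels. The methods call the samples biological replicates and name no litters. Of 10 measured genes that mark cerebellar neurons, 7 were above the array median, among them Zic1, En2 and Neurod1, while Atoh1, Calb1 and Pax6 were below it.

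Red cell precursors mature in the fetal liver, the spleen and the bone marrow. In a brain sample their transcripts can arrive with the blood left in its vessels. Which cells gave the signals measured here was not tested. Reticulocytes, the youngest circulating red cells, have lost their nucleus but still hold globin mRNA and are abundant in newborn rodents. Hemoglobin joins alpha-type and beta-type globin chains, each carrying a heme. In the mouse, the primitive red cells of the yolk sac use Hba-x (zeta), Hbb-y (epsilon y) and Hbb-bh1 (beta h1), and the definitive red cells that follow use the adult alpha and beta genes. The beta genes of C57BL/6 are named Hbb-bs and Hbb-bt, while Hbb-b1 and Hbb-b2 name the adult pair of another haplotype of the same locus.

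The sequence before the start of transcription is shown for 5 members, since Hba-a1, Hbb-bt and Alas2 varied together over the arrays while the embryonic globins stayed dim. Each line gives the 250 bases before the start, 5′ to 3′ on the strand of the gene, from RefSeq in the build GRCm38.p6, where 6 of the 9 member genes had an entry. Capitals mark 4 short motifs, each searched on both strands. The GATA motif, read by factors such as Gata1, was searched as GATAA. The CACCC box is read by Klf1 and its relatives. The CCAAT box and the TATA box, the latter searched as TATAA, are general promoter elements. Matches may overlap or adjoin, as a pair of CCAAT boxes on opposite strands in Hbb-bt and the 2 TATA box matches that share letters in Alas2.
Hba-a1: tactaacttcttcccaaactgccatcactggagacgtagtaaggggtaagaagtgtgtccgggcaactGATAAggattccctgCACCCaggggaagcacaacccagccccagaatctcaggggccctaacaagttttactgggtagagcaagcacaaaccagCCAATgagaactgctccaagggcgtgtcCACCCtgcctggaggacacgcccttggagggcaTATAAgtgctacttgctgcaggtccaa
Hbb-bt: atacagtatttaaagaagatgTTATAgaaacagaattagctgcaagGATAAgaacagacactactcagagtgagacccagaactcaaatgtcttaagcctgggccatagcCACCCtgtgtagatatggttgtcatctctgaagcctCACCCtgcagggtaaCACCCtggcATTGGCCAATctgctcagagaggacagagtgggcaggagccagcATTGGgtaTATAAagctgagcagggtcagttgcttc
Hba-x: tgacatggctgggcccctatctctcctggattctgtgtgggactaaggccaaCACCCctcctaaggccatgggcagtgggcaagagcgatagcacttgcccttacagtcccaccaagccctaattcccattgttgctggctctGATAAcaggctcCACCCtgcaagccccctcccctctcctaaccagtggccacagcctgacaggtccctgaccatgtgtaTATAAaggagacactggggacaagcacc
Hbb-y: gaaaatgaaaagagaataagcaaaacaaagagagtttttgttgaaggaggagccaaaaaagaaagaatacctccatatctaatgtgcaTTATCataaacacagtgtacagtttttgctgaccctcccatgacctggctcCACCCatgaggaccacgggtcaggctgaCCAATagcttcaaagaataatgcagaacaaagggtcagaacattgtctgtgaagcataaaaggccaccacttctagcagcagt
Alas2: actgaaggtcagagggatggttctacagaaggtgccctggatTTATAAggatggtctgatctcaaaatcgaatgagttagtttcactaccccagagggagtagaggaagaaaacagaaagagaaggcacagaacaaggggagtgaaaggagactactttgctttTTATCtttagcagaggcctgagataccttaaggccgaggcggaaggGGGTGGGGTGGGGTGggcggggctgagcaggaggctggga

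These windows lie at chr11:32283422-32283671 (plus strand) for Hba-a1, chr7:103813924-103814173 (minus strand) for Hbb-bt, chr11:32276350-32276599 (plus strand) for Hba-x, chr7:103853208-103853457 (minus strand) for Hbb-y and chrX:150547167-150547416 (plus strand) for Alas2. Of the 6 member genes with an entry, all held the GATA motif, and 5 held a CACCC box as well. Epb42, whose sequence is not shown, had no CACCC box in the window. Among 32851 windows of the same length, 22.6% held the GATA motif and 52% a CACCC box, and 10.1% held both. A CCAAT box stood in 33.8% and a TATA box in 22.8%. The TATA box began 27 bases before the start in Hba-a1 and 28 bases before it in both Hbb-bt and Hba-x. In Hbb-y the letters TATAA were not found in the window, but variants of the TATA box were not searched, so its lack is not shown. A CCAAT box began 83 bases and a CACCC box 111 bases before the start of Hbb-y. In Alas2 the reverse complement of the CACCC box stood 3 times in a row, beginning 40, 35 and 30 bases before the start. The entries of Hba-a1 and Hba-a2 were identical over 297 of 297 shared bases, and these are near-identical gene copies, so that the Hba-a1 probe may report both. These matches are letters in a window and were not tested as binding sites.

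Signals are log2 values scaled to a common array median of 6.84, and each probe is described against that median or against itself, since probes of different genes are not comparable in level. The erythroid probes fell into a bright set of 4 (Hba-a1, Hbb-bt, Alas2 and Slc4a1) and a dim set of 6 whose mean over all arrays lay below the array median. No detection call was used, so a dim probe is not shown to be without transcript. In a whole tissue, fewer red cells and less RNA per red cell cannot be told apart.

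Among the adult globins, Hba-a1 (adult alpha chain, chromosome 11) was among the brightest probes, with a mean above 99.8% of all probes. On the WT arrays it lay between 14.18 and 15.32 with a median of 14.80, and on the KO arrays between 13.43 and 14.97 with a median of 14.58. The groups overlapped widely: WT replicate 8 was the highest array, KO replicate 4 the lowest, and 3 of 7 KO arrays were above the WT mean. Hbb-bt (adult beta chain, chromosome 7) had a signal of 7.98 to 9.11 with a median of 8.77 in WT and 7.58 to 8.78 with a median of 8.42 in KO. KO replicate 4 and WT replicate 2 were at the low end of Hbb-bt, as they were for Hba-a1. Hbb-b2 (adult beta chain of the other haplotype) was dim on every array, between 6.14 and 6.62 in WT and between 6.27 and 6.59 in KO. The Hbb-bt probe was assigned through its accession, which carried an older symbol, and the adult beta genes are near-identical copies that a probe may not separate.

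Of the other erythroid genes, Alas2 (chromosome X), the erythroid enzyme that starts heme synthesis, had a signal of 7.52 to 8.67 with a median of 8.01 in WT and 7.23 to 8.11 with a median of 7.86 in KO. On 3 WT arrays it was above every KO array, and on 2 KO arrays, replicates 4 and 6, it was below every WT array. Slc4a1 (chromosome 11), the band 3 anion exchanger of the red cell membrane, lay near the array median, at 6.67 to 8.01 with a median of 7.20 in WT and 6.65 to 7.12 with a median of 6.73 in KO. All 7 KO arrays were below the WT mean of Slc4a1, yet WT replicate 2 lay within the KO range and only 1 KO array was below it. Epb42 (chromosome 2), the membrane protein 4.2 that binds band 3, was dim, with 5.93 to 6.47 on the WT arrays and 6.12 to 6.53 on the KO arrays.

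**Figure D1:**
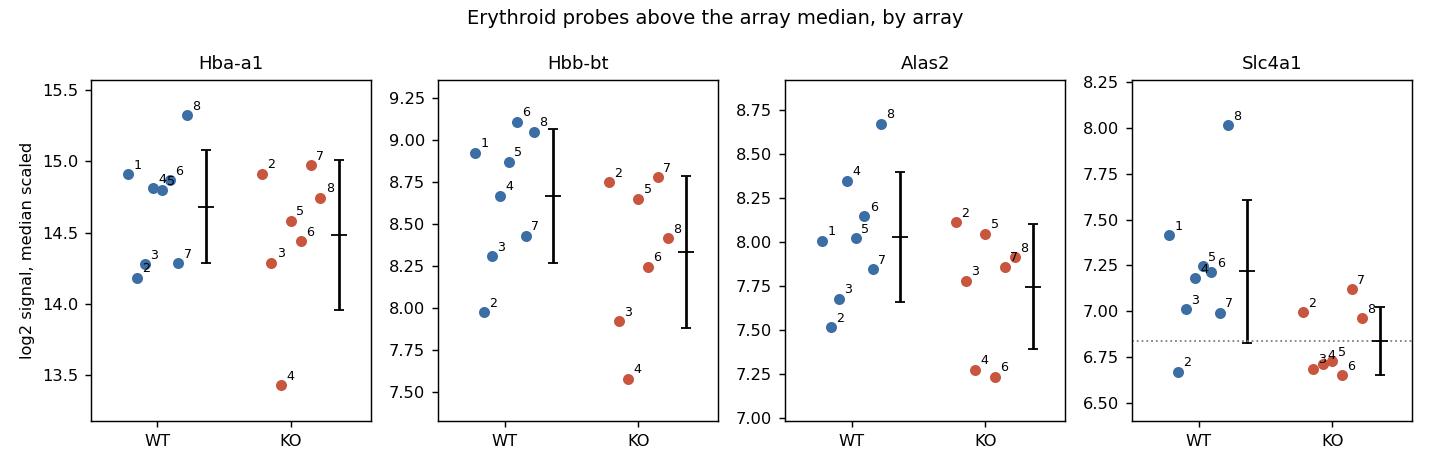
Log2 signal (vertical axis, median scaled, a separate range in each panel) of Hba-a1, Hbb-bt, Alas2 and Slc4a1 on each array, with points numbered by replicate; black bars give the mean ± SD of 8 WT and 7 KO arrays and the dotted line the array median, which falls only in the range of Slc4a1. WT replicate 8 is highest for Hba-a1, Alas2 and Slc4a1, and KO replicate 4 is lowest for both globins.

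All 3 embryonic globins were below the array median on every array. Hba-x, the embryonic alpha-type chain of chromosome 11, lay between 5.87 and 6.50 with a median of 6.28 in WT and between 5.86 and 6.51 with a median of 6.35 in KO. Hbb-y on chromosome 7, an embryonic beta-type chain, lay between 6.13 and 6.57 (median 6.31) in WT and between 6.12 and 6.47 (median 6.21) in KO. Its second probe was dimmer, at 5.94 to 6.25 in WT and 5.94 to 6.34 in KO. Hbb-bh1, the other embryonic beta-type chain, lay between 6.10 and 6.44 (median 6.24) in WT and between 6.04 and 6.39 (median 6.25) in KO. The groups overlapped at each of these probes. Over the 6 dim probes, the mean signal stood above 13.1% to 32.2% of all probes, and the ratio of the highest to the lowest array was 1.32 to 1.56. The same ratio was 3.71 for Hba-a1, 2.89 for Hbb-bt, 2.71 for Alas2 and 2.57 for Slc4a1.

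**Figure D2:**
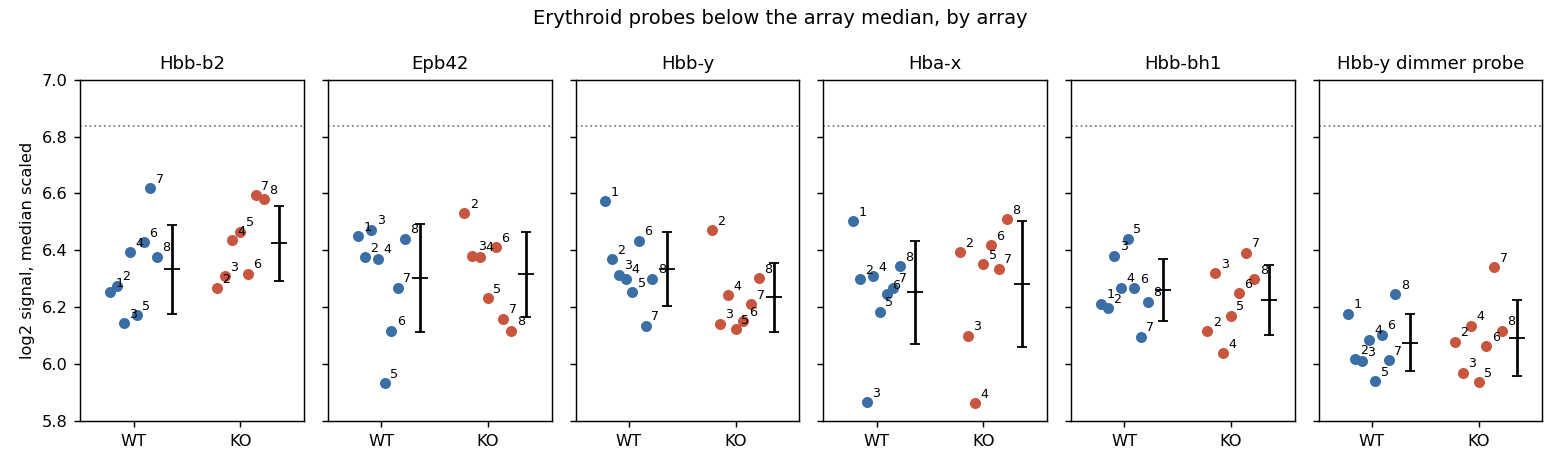
Log2 signal (vertical axis, median scaled) on each array for the 6 erythroid probes below the array median, with points numbered by replicate, black bars for the mean ± SD of 8 WT and 7 KO arrays and a dotted line at the array median of 6.84. Every point lies between 5.86 and 6.62, under the line, and the genotypes overlap in each panel.

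Whether the erythroid signal differed with genotype was asked at each probe. The 4 bright probes had lower means in KO, and none passed the test. Slc4a1 counts as bright only through its WT arrays, since its KO mean of 6.836 lay just below the array median of 6.837. Its place in the bright set is therefore tied to its difference between genotypes. For Slc4a1 the mean of the 8 WT arrays was 7.22 ± 0.39 (SD) and that of the 7 KO arrays 6.84 ± 0.19 (SD), a difference of -0.38 ± 0.14 (SE; limma adjusted p = 0.673, unadjusted p = 0.0113), or 0.767 times the WT signal. Hbb-bt was 8.67 ± 0.40 in WT and 8.34 ± 0.45 in KO, a difference of -0.33 ± 0.18 (SE; limma adjusted p = 0.959). Alas2 was 8.03 ± 0.37 in WT and 7.75 ± 0.35 in KO, a difference of -0.28 ± 0.16 (SE; limma adjusted p = 0.962). Hba-a1 was 14.68 ± 0.40 in WT and 14.48 ± 0.53 in KO, a difference of -0.20 ± 0.20 (SE; limma adjusted p = 0.998). The 95% intervals were -0.67 to -0.10 for Slc4a1, -0.71 to 0.05 for Hbb-bt, -0.61 to 0.04 for Alas2 and -0.61 to 0.21 for Hba-a1, unadjusted for the number of probes. The 6 dim probes differed by -0.10 (Hbb-y) to 0.09 (Hbb-b2).

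Of the 10 erythroid probes, 0 were called at an adjusted p of 0.05, where 20 of all 25697 probes were called (0.0778%; 12 lower and 8 higher in KO). At an unadjusted p of 0.05, 1 erythroid probe, Slc4a1, was lower in KO and 0 were higher, against 2.4% and 3.02% of all probes. The WT and KO arrays did not overlap at 0 of the 10, against 0.101% of all probes. The median difference of the 10 probes was -0.07 and that of all probes 0.02. Without KO replicate 4 the difference of Hba-a1 was -0.02 and that of Hbb-bt -0.21, and without WT replicate 8 that of Hba-a1 was -0.11. With each array left out in turn, the lowest adjusted p of Slc4a1 was 0.458.

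**Figure D3:**
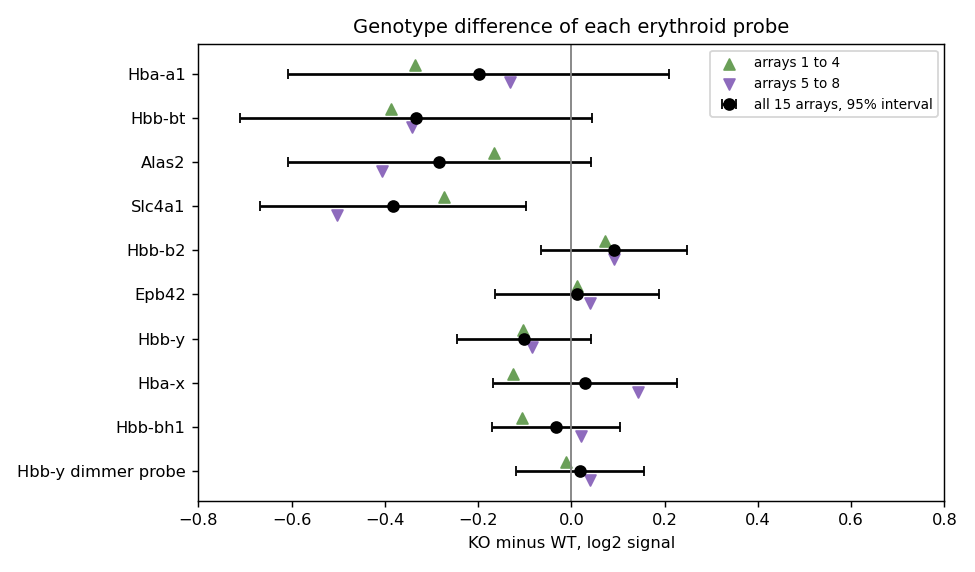
KO minus WT difference in log2 signal (horizontal axis) of each erythroid probe, with black points and 95% intervals from the limma fit on all 15 arrays and triangles for the fits on replicates 1 to 4 and 5 to 8 alone. Hba-a1, Hbb-bt, Alas2 and Slc4a1 lie left of 0 in each fit, and only the interval of Slc4a1, which is not adjusted for the number of probes, leaves out 0.

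The arrays fall into replicates 1 to 4 and 5 to 8, a division of the numbers in the labels that the sources do not describe as a batch. With genotype in the model, 19.1% of all probes differed between these array sets (limma, adjusted p under 0.05). Of the erythroid probes only Epb42 passed, at -0.21 in replicates 5 to 8 (limma adjusted p = 0.0339). Hbb-bt was 0.42 higher there (limma adjusted p = 0.0705) and Hba-a1 0.37 higher (limma adjusted p = 0.165), without passing. The KO minus WT difference was -0.34 in replicates 1 to 4 and -0.13 in replicates 5 to 8 for Hba-a1, and -0.39 and -0.34 for Hbb-bt. It was -0.17 and -0.41 for Alas2 and -0.27 and -0.50 for Slc4a1. None of these passed within a set, and the difference between the sets passed at none of the 10 probes.

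Sex could not be taken from the labels. Xist, the RNA of the inactive X chromosome, was at 8.10 to 8.57 on 6 WT arrays and 1 KO array and at 6.20 to 6.46 on the others, so that sex and genotype are partly confounded. With Xist as a covariate the difference was -0.28 at X-linked Alas2 (limma adjusted p = 0.935), -0.30 at Slc4a1, -0.41 at Hbb-bt and -0.16 at Hba-a1. Cxcr4 itself matched the labels, at 8.80 to 9.79 on the WT arrays and 6.45 to 6.89 on the KO arrays.

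To ask whether the balance of embryonic and adult globins differed with genotype, an adult probe was subtracted from an embryonic probe of the same chain type on each array, which removes a fixed probe affinity from the comparison of genotypes. The difference of Hba-x from Hba-a1 averaged -8.43 ± 0.35 (SD) over 8 WT arrays and -8.20 ± 0.35 (SD) over 7 KO arrays, a change of 0.23 (exact permutation test, two-sided, p = 0.230). The difference of Hbb-y from Hbb-bt was -2.33 ± 0.38 in WT and -2.10 ± 0.43 in KO, a change of 0.23 (exact permutation p = 0.289). That of Hbb-bh1 from Hbb-bt was -2.41 ± 0.39 in WT and -2.11 ± 0.43 in KO, a change of 0.30 (exact permutation p = 0.180). In each, 5 of 7 KO arrays were above the WT mean. With the mean of all adult beta probes in place of Hbb-bt the changes were 0.02 for Hbb-y and 0.09 for Hbb-bh1. That mean adds only Hbb-b2, which was dim on every array, and so lessens the part of Hbb-bt in the change. Without KO replicate 4 they were 0.12 for Hba-x and, against Hbb-bt, 0.10 for Hbb-y and 0.20 for Hbb-bh1. Adjusted over the 3 differences all p were 0.289. The embryonic probes themselves differed between genotypes by -0.10 (Hbb-y) to 0.03 (Hba-x). How closely a probe this dim follows its transcript is not known, so these differences are no measure of globin switching.

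The bright erythroid probes spread widely within a genotype. The SD within genotype was 0.46 for Hba-a1, 0.42 for Hbb-bt, 0.36 for Alas2 and 0.31 for Slc4a1, above that of 97.4% to 99.1% of all probes, whose median was 0.14. For the dim probes it was 0.12 to 0.20. WT replicate 8 had the highest mean rank over the bright probes (1.25 of 15 arrays, counted from the highest). KO replicate 4 had the lowest (14), after WT replicate 2 (13.5) and KO replicate 6 (13). The 5 highest arrays by this rank were WT, followed by KO replicate 2 (5.25) and KO replicate 7 (5.5), and the 4 lowest were 1 WT and 3 KO arrays.

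**Figure D4:**
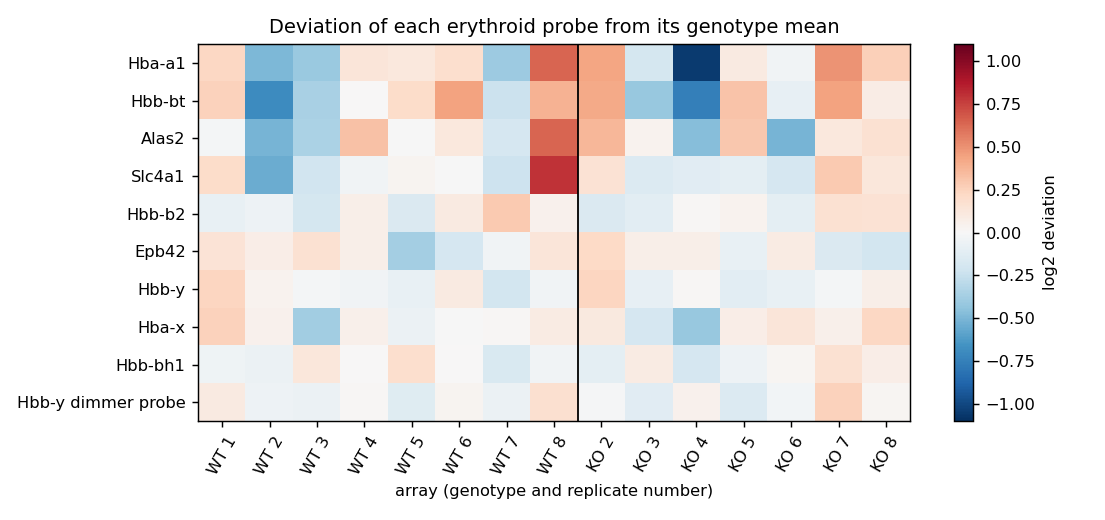
Deviation of each erythroid probe (rows) from its genotype mean on each array (columns, 8 WT left of the line and 7 KO right of it), in log2 units on a colour scale from blue (below) to red (above). The upper 4 rows, Hba-a1, Hbb-bt, Alas2 and Slc4a1, share their red and blue arrays, such as WT replicate 8 and KO replicate 4, and the dim probes in the lower rows are paler.

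After removal of the genotype means, the bright probes varied together over the 15 arrays. Each p comes from 100000 permutations, except for Alas2 with Ttr, where every order of the arrays was used. Each adjusted p covers the 18 relations computed. Hba-a1 and Hbb-bt, both globins of red cells but encoded on different chromosomes, had r = 0.916 (rho = 0.875, adjusted p of r = 0.00018). The permutation p of that r was 1e-05, the lowest value so many permutations can give. Alas2 had r = 0.804 with Hba-a1 (permutation p = 0.00023, adjusted p = 0.00207; rho = 0.775, p = 0.00099), r = 0.759 with Hbb-bt (adjusted p = 0.00522; rho = 0.689) and r = 0.758 with Slc4a1 (adjusted p = 0.0042; rho = 0.696). Slc4a1 had r = 0.746 with Hba-a1 (adjusted p = 0.00713; rho = 0.918) and r = 0.698 with Hbb-bt (adjusted p = 0.00747; rho = 0.793). The 3 relations without Alas2 were added after the values were seen.

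These relations held without the 2 arrays farthest from the median. Then r was 0.907 for Hba-a1 and Hbb-bt, and with Alas2 it was 0.845 for Hba-a1, 0.817 for Hbb-bt and 0.655 for Slc4a1. Slc4a1 gave 0.916 with Hba-a1 and 0.756 with Hbb-bt. Within replicates 1 to 4 and 5 to 8 the relation of Alas2 with Hba-a1 had r = 0.867 and 0.727, that with Hbb-bt 0.836 and 0.697, and that with Slc4a1 0.708 and 0.779. For Hba-a1 and Hbb-bt these were 0.938 and 0.808. For Slc4a1 they were 0.640 and 0.885 with Hba-a1 and 0.832 and 0.583 with Hbb-bt. The dim probes did not follow Alas2 beyond the adjusted threshold, with r of 0.429 for Hba-x, 0.225 for Hbb-b2, 0.162 for Hbb-y, 0.094 for Hbb-bh1 and -0.093 for Epb42 (lowest adjusted p = 0.255).

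**Figure D5:**
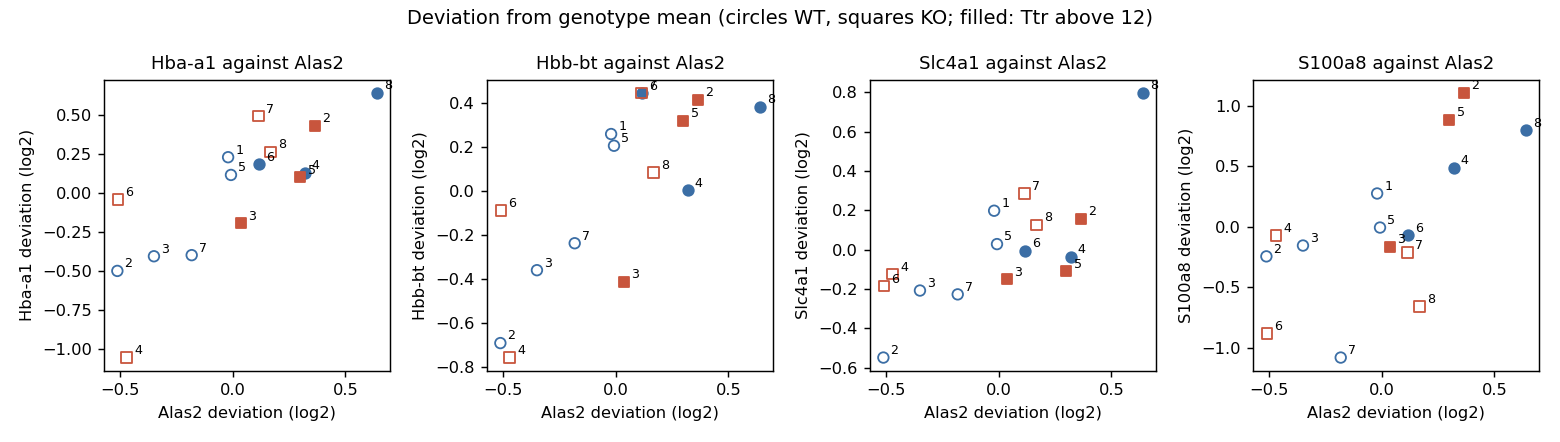
Deviation from the genotype mean in log2 units for Hba-a1, Hbb-bt, Slc4a1 and S100a8 (vertical axes) against that of Alas2 (horizontal axes), one point per array numbered by replicate, with circles for WT, squares for KO and filled symbols for arrays with a Ttr signal above 12. The points rise together in all panels, with r of 0.804, 0.759, 0.758 and 0.669, and most filled points lie to the right.

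Markers of other cells were set beside Alas2. S100a8, a calcium-binding protein abundant in neutrophils, had a signal of 7.96 to 9.84 (median 9.01) in WT and 8.23 to 10.22 (median 8.95) in KO, and followed Alas2 with r = 0.669 (permutation p = 0.00642, adjusted p = 0.0165; rho = 0.639). Without the 2 farthest arrays r was 0.530, and within replicates 1 to 4 and 5 to 8 it was 0.822 and 0.807. All 10 measured genes of the neutrophil list had a positive r with Alas2, with a median of 0.48, although 6 of them were below the array median. Pf4, the platelet factor that tissue macrophages also make, had r = 0.074, and C1qa of microglia 0.190. Pecam1 of endothelium had r = 0.122 over all arrays but -0.623 in replicates 1 to 4 and 0.810 in replicates 5 to 8. Col1a1 of the meninges had -0.088.

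Choroid plexus transcripts moved with Alas2, and less clearly or not with the other bright erythroid probes. Ttr, made by the choroid plexus epithelium, was at 15.46 to 15.90 on 3 WT and 3 KO arrays and at 7.20 to 10.59 on the remaining 9. In WT, Alas2 lay at 8.15 to 8.67 on the arrays high in Ttr and at 7.52 to 8.02 on the others, without overlap. In KO the ranges overlap, at 7.78 to 8.11 and 7.23 to 7.91. Hba-a1 lay at 14.81 to 15.32 against 14.18 to 14.91 in WT and at 14.29 to 14.91 against 13.43 to 14.97 in KO, where the medians were 14.58 and 14.59. For Hbb-bt the medians were 9.05 on the arrays high in Ttr and 8.43 on the others in WT, and 8.65 and 8.33 in KO, with overlapping ranges. For Slc4a1 they were 7.21 and 7.01 in WT, and in KO the order was turned, at 6.73 and 6.84. Within the arrays high in Ttr the r of Alas2 and Ttr was -0.051 (n = 6, permutation p = 0.915), and within the others -0.169 (n = 9, permutation p = 0.645). Both r used deviations from genotype means over all arrays, so an offset between genotypes can remain among the arrays compared. On the arrays high in Ttr, no KO deviation of Ttr was below 4.19, while no WT deviation exceeded 3.94. These r therefore cannot show whether Alas2 followed Ttr among such arrays. All 8 measured genes of the choroid plexus list had a positive r with Alas2 (median 0.71), and their summed linear signal ranged from 2788 to 70964 in WT and from 2249 to 75714 in KO. With Ttr as a covariate, added after the values were seen, the difference of Alas2 was -0.25 (limma adjusted p = 0.833, unadjusted p = 0.0487), that of Slc4a1 -0.37 (limma adjusted p = 0.581), of Hbb-bt -0.31 and of Hba-a1 -0.18. The part of the choroid plexus in the spread of the erythroid probes and of S100a8 was not tested.

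Outside the members, the 10 genes whose deviations were most like those of Alas2 had r between 0.794 and 0.846 over 15 arrays, among 8957 genes above the array median. They were Nucb1, Stk39, Macrod1, Tuft1, Abca4, Clmn, Grhpr, Ctf1, Vat1l and Arhgef18. Their own r with Ttr was 0.522 to 0.888. Hba-a1 would rank 7 in this order, while Hbb-bt and Slc4a1 would each rank 21, behind many genes outside the members. No p is given since the 10 genes were picked by their r.

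The remaining erythroid programme was read from 4 lists with 51 measured genes, 23 of them below the array median, and 0 were called. At an unadjusted p of 0.05, 1 was higher in KO and 0 were lower, against 3.02% and 2.4% of all probes. Of 11 genes of heme synthesis, 8 had lower means in KO with a median difference of -0.06. The lowest p were those of Alad, the second enzyme of the pathway, at -0.15 (limma adjusted p = 0.971), Urod at 0.10 and Fech, which inserts the iron, at 0.06. Of 13 genes of the red cell membrane, 8 were below the array median and 2 had lower means, with a median of 0.03. Ackr1, the Duffy chemokine receptor, which is also made in other cells, differed by 0.17 (limma adjusted p = 0.959), the blood group gene Rhd by 0.08 and Ermap by -0.06. Of 15 erythroid regulators, 11 were below the array median, with a median difference of -0.02. Tal1, a transcription factor of blood precursors, differed by -0.19 (limma adjusted p = 0.972), its partner Lmo2 by -0.10 and the Gata1 cofactor Zfpm1 by 0.14. Of 12 genes of red cell metabolism and iron uptake, the median difference was 0.05. The iron transporter Slc11a2 differed by 0.26 (limma unadjusted p = 0.0240, adjusted p = 0.814), the peroxidase Prdx2 by 0.10 and the catalase Cat by -0.21. The median r with Alas2 was 0.26 for heme synthesis, 0.14 for the membrane, -0.08 for the regulators and 0.22 for metabolism and iron uptake. Among the genes named here from the 4 lists, r ranged from -0.74 at Tal1 to 0.66 at Alad. Heme synthesis and iron uptake run in all cells, so these genes are not specific to red cells.

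Over all 15 lists with 161 different measured genes, 1 was called, Barhl1 of the cerebellar neuron list, against 0.0778% of all probes. In the platelet list, 1 of 8 was lower and 1 higher at an unadjusted p of 0.05, namely Pf4 at -0.81 (limma adjusted p = 0.333) and Gp5 at 0.14 (limma adjusted p = 0.904), and Ppbp differed by 0.08. In the neutrophil list none of 10 reached it, with differences of 0.12 at Elane, 0.08 at Cxcr2 and 0.11 at Ngp. The counts lower in KO at that p were 5 of 12 for meningeal fibroblasts, 4 of 19 for endothelium, 4 of 10 for pericytes and smooth muscle and 3 of 12 for macrophages and microglia. They were 0 of 10 for lymphocytes and 0 of 8 for the choroid plexus. Of all probes, 2.4% were lower and 3.02% higher in KO at that p.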

How the data were processed

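RNA of 15 P1 cerebella (8 WT, 7 KO) was amplified and labelled with biotin, then measured on MouseRef-8 v2 BeadChips from Illumina, and the authors extracted the probe signals with GenomeStudio. They deposited the signal intensity of 25697 probes, not normalized between arrays, together with log2 values the authors had shifted to one array median. The array medians of the deposited intensity were 97.3 to 123. Precision is limited by how many arrays there are. Groups follow the genotype label.

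Following the methods, the log2 of each intensity was taken and each array was shifted to one median; the result matched the deposited log2 table to within 6.23e-05. Symbols came from the platform annotation, with current names taken by Entrez identifier from the RefSeq genes of GRCm38.p6. Of the probes, 23978 had 1 symbol and 1719 none, and 23962 matched the table. No filter on dim probes was applied, and the probe with the highest mean stood for a gene of a list. KO was compared with WT over all probes in limma 3.58.1 (lmFit and eBayes, two-sided) in R 4.3.3 with Benjamini-Hochberg adjustment and a threshold of 0.05. The script was tested on simulated data. Differences between probes were tested by an exact permutation test over 6435 splits of the arrays. Python 3.11.15 (scipy 1.17.1, pandas 2.3.3, numpy 2.4.6) served for the remaining values and matplotlib 3.10.9 for the figures.

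The members, gene lists and alternatives were chosen with earlier results of these data known. The rule for named genes takes every member, the 3 genes of each list with the lowest p, the 10 genes most like Alas2, Cxcr4 and Xist; lists of lymphocytes and resident tissue cells are given by counts. S100a8, Pf4, Pecam1, Col1a1, C1qa and Ttr were set beside Alas2 as markers of other cells. Barhl1 was the only listed gene called. Alternatives were the deposited log2 table, quantile normalization, normexp (offset 50) as background correction, a filter on dim probes, 1 probe per gene, array weights, other thresholds, the replicate number or the array set as a block, each set alone, Xist as a covariate and leaving out each array.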

Additional observations from a re-analysis of the deposited data

How the results depend on the processing

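No erythroid probe was called under any alternative, and the lowest adjusted p of an erythroid probe was 0.364 (Slc4a1 in replicates 5 to 8 alone), apart from the looser rule of an unadjusted p under 0.05, which called 1. The differences of Hba-a1, Hbb-bt, Alas2 and Slc4a1 kept their sign throughout. Leaving out each array gave -0.28 to -0.02 for Hba-a1, -0.43 to -0.21 for Hbb-bt, -0.36 to -0.19 for Alas2 and -0.46 to -0.27 for Slc4a1. The count of all probes called was 40 with the array set as a block, 78 in replicates 5 to 8 alone and 12 with Xist as a covariate. It was 13 to 28 when each array was left out, with 13 without KO replicate 6. The cause was not tested.

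Whether the replicate numbers pair the samples is not given in the sources used here. The deviations of same-numbered WT and KO arrays correlated at -0.15 to 0.37, over 0.1 in 3 of 7 pairs, and 1 of 7 arrays correlated best with its own number. Each KO array correlated best with a WT array of its own array set, so these correlations cannot exclude a pairing. With the replicate number as a block, 18 probes and 0 erythroid probes were called.

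Differences that changed sign were all small, and belonged to dim and to brighter probes; none passed the threshold. Epb42 was -0.0131 with quantile normalization, -0.0110 with array weights and -0.0408 to 0.0452 with each array left out. Hba-x was -0.125 in replicates 1 to 4 and -0.0261 to 0.0988 with each array left out. Hbb-bh1 was 0.0215 in replicates 5 to 8. The dimmer Hbb-y probe was -0.00945 with quantile normalization, -0.0114 in replicates 1 to 4 and -0.0240 to 0.0434 with each array left out. In replicates 1 to 4, Blvrb was 0.154, Cat 0.0299 and Ngb -0.103. In replicates 5 to 8, Cxcr2 was -0.00497, Cygb 0.0514 and Mb -0.0497. Cygb was also 0.00184 with normexp, 0.00673 with array weights and -0.0747 to 0.0425 with each array left out. Mb was -0.00112 with the array set as a block, -0.0631 with Xist as a covariate and -0.0299 to 0.0578 with each array left out, and Ermap was 0.00977 with Xist as a covariate. The cause was not tested.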

Other observations

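Genes that handle hemoglobin once red cells break down were read from a list of 10 measured genes, of which 7 had lower means in KO, with a median difference of -0.10 against 0.01 over all 16593 genes. None was called, and 2 reached an unadjusted p of 0.05, both lower in KO, where 2.4% of all probes were lower at that p. Slc40a1 (ferroportin), which exports iron from cells, was at 10.29 in WT and 9.90 in KO, a difference of -0.38 ± 0.14 (SE; limma adjusted p = 0.698). Hmox1, the heme oxygenase that opens the heme ring, was at 7.16 in WT and 6.87 in KO, a difference of -0.29 ± 0.13 (SE; limma adjusted p = 0.855). Blvrb, a biliverdin reductase, differed by -0.14. The median r of the list with Alas2 was 0.04.

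Globins outside the red cell did not differ between genotypes beyond the threshold. Ngb (neuroglobin) differed by 0.05, Mb (myoglobin) by 0.01 and Cygb (cytoglobin) by -0.01, each with a limma adjusted p of 0.998 or higher, and their r with Alas2 ranged from -0.57 to 0.25.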
